A study of Mus musculus with 6 samples.

Results

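The interleukin-17 axis was followed through 8 genes, chosen by symbol from the 33696 genes in the files. The rule itself uses no measured value, but it was set with earlier results of these data known. They comprise the cytokine genes Il17a and Il17f, the receptor subunit genes Il17ra, Il17rc and Il17rd, the interleukin-23 receptor gene Il23r, and Nfkbiz and Zc3h12a, which act inside the responding cell. All 8 were found in the files, and all 8 held unique molecular identifier (UMI) counts in at least 1 library.

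Cells came from the Achilles tendon of Gli1-CreERT2; Ai9 mice that had received tamoxifen, so that cells expressing Cre from the Gli1 promoter, and the progeny of these cells, carried a fluorescent label. Tendons were taken uninjured, or at 7 or 21 days post injury (dpi) by tenotomy, from 8 mice at each time point, and the labelled (Gli1+) and unlabelled (Gli1-) cells were separated by FACS. This gave 6 single-cell RNA-seq libraries, 1 for each condition, in which the cells of the mice were pooled. The labels name 1 set of mice for both sorts of a time point. All groups carry the same alleles and the same tamoxifen treatment, the age of the mice was not given in the sources used here, and no gate against blood cells was described for the sort.

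Because each condition is 1 library, no difference between conditions has a replicate check, and no p-value is given. Levels are given in CPM, the UMIs of a gene over all UMIs of the cells of a class at the usual scale of that unit, with a 95% exact Poisson interval in brackets. Differences are log2 ratios of 2 such levels, with an interval from the binomial split of the counts. These intervals cover counting error only.

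The libraries differed in ways that bear on every comparison. After filtering they held 7057 to 10882 cells and 53564928 to 107887022 UMIs. Although an equal number of each sex was stated for the mice, 59.6% of Gli1- uninjured, 70.9% of Gli1+ 7 dpi and 70.5% of Gli1- 7 dpi cells held Y-linked UMIs and no Xist UMI, whereas 92.7% of Gli1+ 21 dpi and 90.5% of Gli1- 21 dpi cells held Xist and no Y-linked UMI. The Gli1+ uninjured library was mixed, with 68.7% and 15% of its cells holding only Xist or only Y-linked UMIs, whereas 0% of Gli1- uninjured cells held only Xist. The 2 uninjured sorts thus differed in the sex of their cells, which goes against their being drawn alike from 1 set of mice. Time point, sex of the cells and library therefore cannot be told apart in most comparisons. No 2 libraries shared more than 0.354% of the cell barcodes of the smaller one.

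Cells were placed in 4 classes by a single marker each. Ptprc cells (leukocytes) held at least 1 Ptprc UMI, Pdgfra cells (mesenchymal cells) at least 1 Pdgfra UMI, Cdh5 cells (endothelium) at least 1 Cdh5 UMI, and Krt14-high cells (keratinocytes) at least 10 Krt14 UMIs making up at least 0.1% of the cell. Cells meeting more than 1 of these criteria were left out. Ptprc cells made up 3686 of the 7057 cells of Gli1+ uninjured, but numbered 0 to 19 in each of the other 5 libraries, so the leukocyte values below belong to 1 library. Pdgfra cells numbered 1555 in Gli1+ uninjured, 4255 in Gli1- uninjured, 4211 in Gli1+ 7 dpi, 5923 in Gli1- 7 dpi, 5132 in Gli1+ 21 dpi and 5065 in Gli1- 21 dpi. Against the sort label, Gli1 itself reached 0.661 CPM in the Ptprc cells of Gli1+ uninjured and 15.1 CPM in its Pdgfra cells.

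As background, interleukin-17A and interleukin-17F are made by type 17 lymphocytes, among them gamma delta T cells of barrier tissues, whose programme is maintained by interleukin-23. They bind a receptor of IL-17RA and IL-17RC on fibroblasts, keratinocytes and other stromal cells, and signal through the adaptor Act1 (Traf3ip2). IκBζ (Nfkbiz) carries the response to genes for neutrophil-attracting chemokines, acute-phase proteins and matrix metalloproteinases, while the RNase Regnase-1 (Zc3h12a) degrades the messages it produces.

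The proximal promoters of the 3 genes that were high in leukocytes are shown because they share a half-site common to many nuclear receptors. These are the 250 bases before the RefSeq start of each gene on GRCm38.p6, in the direction of transcription, with AGGTCA or its reverse complement TGACCT in capitals. Il17a lies at chr1:20730655-20730904 on the plus strand, Il17f at chr1:20784271-20784520 on the minus strand and Il23r at chr6:67491856-67492105 on the minus strand.
Il17a: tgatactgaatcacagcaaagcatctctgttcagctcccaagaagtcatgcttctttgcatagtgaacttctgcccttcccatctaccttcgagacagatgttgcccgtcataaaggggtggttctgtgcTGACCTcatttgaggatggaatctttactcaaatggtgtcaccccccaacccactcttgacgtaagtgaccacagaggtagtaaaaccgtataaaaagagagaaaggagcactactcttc
Il17f: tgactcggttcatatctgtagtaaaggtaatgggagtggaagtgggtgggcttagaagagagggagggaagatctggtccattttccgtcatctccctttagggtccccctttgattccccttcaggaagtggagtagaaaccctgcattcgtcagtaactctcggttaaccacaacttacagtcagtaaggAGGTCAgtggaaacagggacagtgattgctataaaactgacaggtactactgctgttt
Il23r: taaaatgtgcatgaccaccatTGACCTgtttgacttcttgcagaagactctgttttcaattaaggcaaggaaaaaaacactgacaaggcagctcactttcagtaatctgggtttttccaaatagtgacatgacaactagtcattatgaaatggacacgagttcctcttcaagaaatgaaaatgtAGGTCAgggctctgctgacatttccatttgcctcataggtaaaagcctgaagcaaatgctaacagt
The half-site started 120 bases before the start in Il17a, 58 bases before it in Il17f, and 229 and 66 bases before it in Il23r. Of the 8 members, 6 had a promoter in the RefSeq table, and the half-site was absent from the windows of the other 3 of these, Il17rc, Il17rd and Zc3h12a. Of all 32851 promoter windows of that length, 14.0% held AGGTCA or TGACCT. The STAT element TTCNNNGAA was in none of the 6 windows, and 7.02% of all windows held it. A match of letters is a description and not a site shown to be bound.

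**Figure D1:**
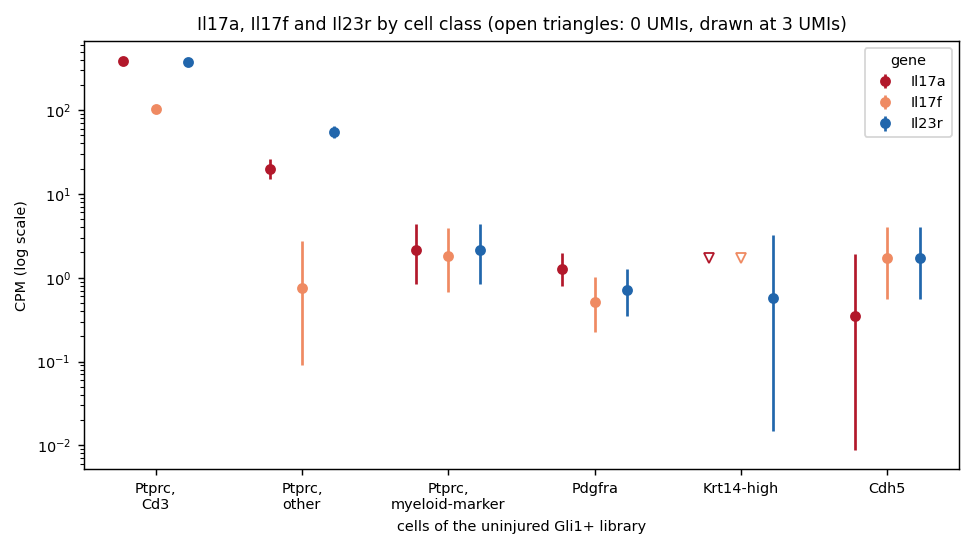
Il17a, Il17f and Il23r levels (CPM, log axis) in the cell classes of the Gli1+ uninjured library; bars on the points are 95% Poisson intervals, and open triangles mark 0 UMIs, drawn at 3. The cytokine genes and Il23r are concentrated in the Cd3 cells among the Ptprc cells, at 386, 103 and 379 CPM.

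Il17a UMIs were found in 1 library. Gli1+ uninjured held 10740 of them, and the other 5 libraries held 0. As these 5 held at most 19 Ptprc cells each, the level in leukocytes was not measurable there. Il17f had 2802 UMIs in Gli1+ uninjured and 22, 10, 9, 5 and 13 UMIs in Gli1- uninjured, Gli1+ 7 dpi, Gli1- 7 dpi, Gli1+ 21 dpi and Gli1- 21 dpi. Of the Il17a UMIs of Gli1+ uninjured, 93.3% lay in its Ptprc cells, where the levels were 315 [309 to 322] CPM for Il17a, 83.8 [80.7 to 87.1] CPM for Il17f and 313 [307 to 319] CPM for Il23r. In the Pdgfra cells of the same library Il17a stood at 1.29 CPM (20 UMIs), Il17f at 0.515 CPM (8 UMIs) and Il23r at 0.708 CPM (11 UMIs). Krt14-high cells had 0 UMIs of both cytokines, and Cdh5 cells had 1 of Il17a and 5 of Il17f. With every cell thinned to 2000 UMIs, 15% of Ptprc cells held Il17a or Il17f (547 of 3651, exact binomial interval 13.8 to 16.2%), against 0.455% of Pdgfra cells (7 of 1540), 0.506% of Cdh5 cells (2 of 395) and 0 of 84 Krt14-high cells, which allows a share of up to 3.57% of cells with a UMI at that depth. Before thinning, 21.2% of Ptprc cells (783 of 3686) held a cytokine UMI. The source of the UMIs in Pdgfra and Cdh5 cells was not tested. The T cell gene Cd3g reached 0.775% of its Ptprc level in the Pdgfra cells of this library, and Il17a reached 0.408%.

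Within the Ptprc cells the cytokines followed the T cell receptor complex. Ptprc cells with a Cd3d, Cd3e or Cd3g UMI (Cd3 cells) made up 80.4% of the class. Il17a measured 386 CPM in the 2964 Cd3 cells, 2.12 CPM in 366 cells with myeloid markers and 19.9 CPM in the other 356 Ptprc cells. Il17f gave 103, 1.82 and 0.75 CPM and Il23r 379, 2.12 and 55.2 CPM in the same order. A cytokine UMI was held by 761 Cd3 cells (25.7%), 13 myeloid-marker cells (3.55%) and 9 other Ptprc cells (2.53%).

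The transcripts were unevenly spread over these cells. Il17a was held by 710 Ptprc cells with a median of 6 and a maximum of 132 UMIs, and the 100 richest cells carried 55.9% of the Il17a UMIs of the class. Il17f was held by 407 cells with a median of 3 and a maximum of 48 UMIs, and its 100 richest cells carried 67.7%. Il23r was spread more evenly, over 1234 cells with a median of 6 UMIs, its 100 richest carrying 26.4%. Both cytokines were found together in 334 cells, which are 47.0% of the Il17a cells and 82.1% of the Il17f cells. Of the cytokine-holding cells 86.2% also held Il23r, whereas 54.7% of the Il23r cells held a cytokine. Il17a with 1 UMI accounted for 158 of its 710 cells.

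The share of cytokine-holding cells differed with the sex of the cells. Among Ptprc cells with only Y-linked UMIs, 19 of 284 (6.69%, 4.08 to 10.3%) held a cytokine and Il17a measured 83.6 CPM. Among those with only Xist UMIs, 684 of 2925 (23.4%, 21.9 to 25.0%) did, at 332 CPM. The library does not say how many mice of each sex these cells came from, so sex and mouse cannot be told apart.

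**Figure D2:**
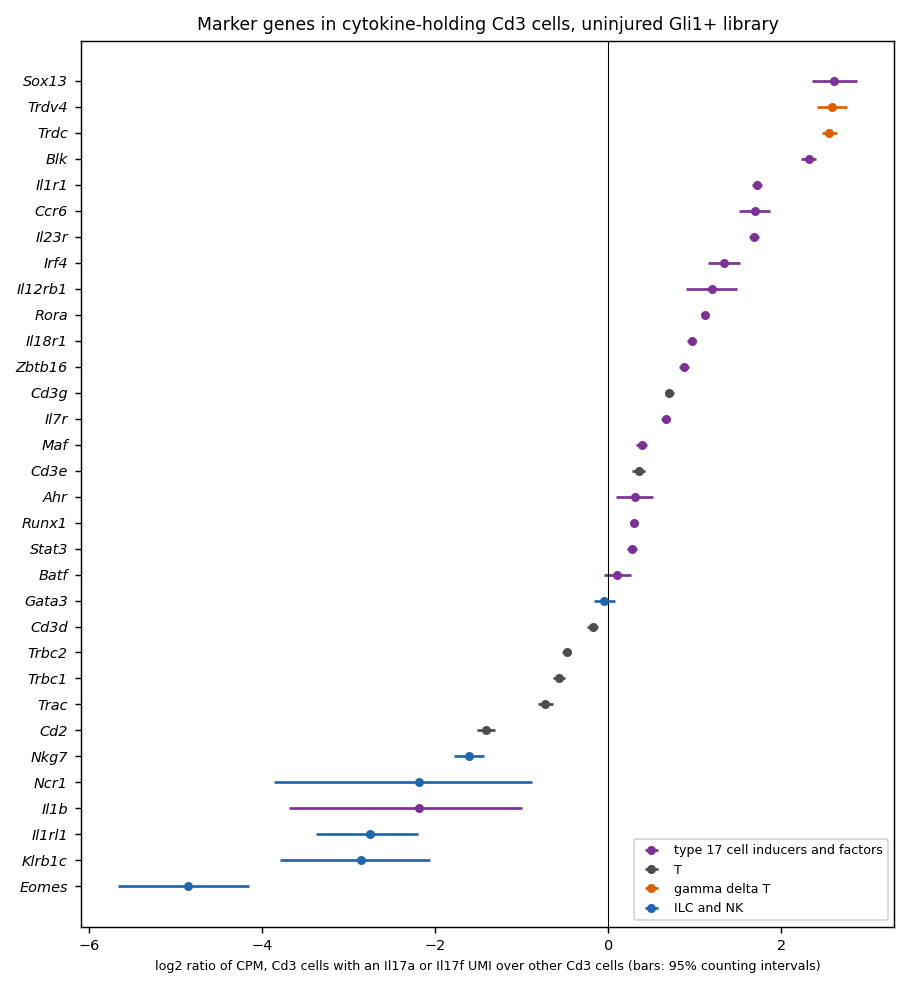
Log2 ratio of CPM in the 761 Cd3 cells with an Il17a or Il17f UMI over the other Cd3 cells of Gli1+ uninjured, for type 17, T, gamma delta T and ILC or NK genes, with 95% counting intervals; Sox13 and Blk belong to both the type 17 and the gamma delta list. Trdc, Trdv4, Sox13, Blk and most type 17 genes lie to the right of 0, whereas Il1b, Trac, Cd2, Nkg7, Klrb1c and Eomes lie to the left.

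In Cd3 cells that held a cytokine, genes of gamma delta T cells and of the type 17 programme stood higher than in the other Cd3 cells. These values describe cells picked by their Il17a or Il17f UMIs and were not tested, and such a choice favours deeper cells, with a median of 8416 UMIs against 7587 in the other Cd3 cells. Trdc, the constant segment of the delta chain, measured 474 CPM against 80.8 CPM and was held by 58.0% against 11.8% of cells. The delta variable segment Trdv4 (log2 ratio 2.58), the factor Sox13 (2.61) and the kinase gene Blk (2.31) were also higher. Of the 8 gamma delta marker symbols fixed for this use, 4 matched a symbol in the files, and other names of the rest were not searched. The interleukin-1 receptor gene Il1r1 (1.72), the chemokine receptor gene Ccr6 (1.69), Il23r itself (736 against 229 CPM, 1.69), Irf4 (1.34), Il12rb1, which encodes the partner chain of the interleukin-23 receptor (1.19), and Rora (1.12) were more than 2-fold higher, and Il18r1 (0.96), Zbtb16 (0.87) and Il7r (0.66) were higher by less. The alpha chain gene Trac lay lower at -0.73, Cd2 at -1.41, Nkg7 at -1.61, Klrb1c at -2.86 and Eomes at -4.86, the last 3 being genes of natural killer and cytotoxic cells. Trac was still held by 50.9% of the cells with a cytokine, against 74.2% of the others. Trbc2 was held by 89.9% against 91.3%, at a log2 ratio of -0.48. Cd3g (0.71) and Cd3e (0.35) were higher.

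The 10 genes with the largest ratios were Chit1 (4.40), Krtdap (3.88), Gm47769 (3.68), Il22 (3.64), Calm4 (3.60), Krt2 (3.53), Tmeff2 (3.27), Zp1 (3.0), Cryba4 (2.92) and Hsbp1l1 (2.92). Il22, a cytokine often made with interleukin-17 that acts on epithelia, measured 102 CPM against 8.11 CPM. Krtdap, Calm4 and Krt2 are genes of differentiating epidermis. All 6 of 6 epidermal markers had UMIs in both sets of Cd3 cells and summed to 81.0 CPM in cells with a cytokine against 39.7 CPM in the others. Krt10 (2.03), Krt1 (2.05), Krt15 (1.47) and Trp63 (1.83) were higher, while Krt14 stood at -0.15 and Krt5 at -0.25, and the part of keratinocyte RNA in these ratios was not tested. The scavenger receptor genes Scart1 (2.45) and Scart2 (2.73) and the gamma chain gene Trgc1 (2.06), added after values had been seen, were higher as well.

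The other members differed less than 2-fold within the Cd3 cells, apart from Il17rc. Il17ra measured 70.2 CPM with and 71.0 CPM without a cytokine, and Nfkbiz 384 and 409 CPM. Zc3h12a was 197 and 155 CPM, a log2 ratio of 0.35 [0.26 to 0.44]. Il17rc measured 6.79 against 1.76 CPM, from 52 and 32 UMIs. In the myeloid-marker cells Nfkbiz reached 1020 CPM, against 401 CPM in all Cd3 cells, a log2 ratio of 1.35 [1.29 to 1.40], whereas Zc3h12a was lower at 105 against 167 CPM.

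**Figure D3:**
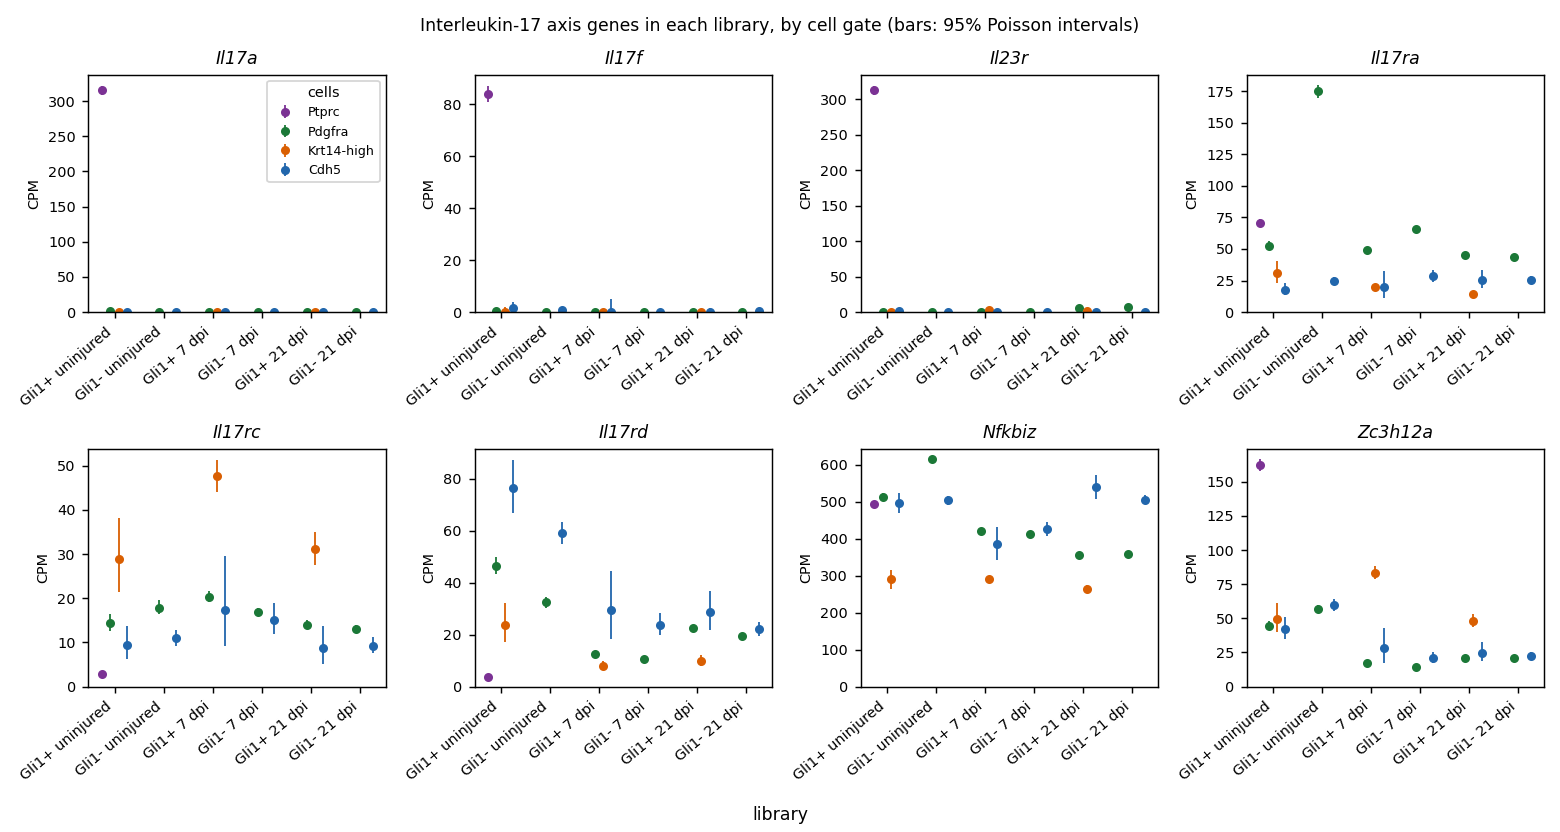
Level of each member (CPM, linear axes from 0) in the Ptprc, Pdgfra, Krt14-high and Cdh5 cells of each library with at least 50 cells in the class; bars on the points are 95% Poisson intervals. Il17a, Il17f and Il23r stand out in the Ptprc cells of Gli1+ uninjured, whereas Il17ra, Nfkbiz and Zc3h12a were measured in every class shown.

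The receptor subunits were distributed differently over the classes. Il17ra, the shared signalling chain, measured 70.9 CPM in Ptprc, 52.7 in Pdgfra, 31.2 in Krt14-high and 17.7 CPM in Cdh5 cells of Gli1+ uninjured, and the intervals of neighbours in this order did not overlap, those of Krt14-high (23.4 to 40.7) and Cdh5 cells (13.2 to 23.3) nearly meeting. In Pdgfra cells it measured 175 CPM in Gli1- uninjured, 49.4 in Gli1+ 7 dpi, 65.7 in Gli1- 7 dpi, 45.0 in Gli1+ 21 dpi and 43.6 CPM in Gli1- 21 dpi. Gli1- uninjured thus stood alone, and the other 5 libraries spanned 43.6 to 65.7 CPM. In Cdh5 cells the 6 libraries spanned 17.7 to 28.6 CPM.

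Il17rc, the chain that pairs with Il17ra, followed another order. It measured 28.9 CPM in Krt14-high, 14.4 in Pdgfra, 9.38 in Cdh5 and 2.93 CPM in Ptprc cells of Gli1+ uninjured, the intervals of Pdgfra (12.6 to 16.4) and Cdh5 cells (6.18 to 13.6) overlapping. In Krt14-high cells it reached 47.6 CPM at 7 dpi and 31.1 CPM at 21 dpi, a level above that of Pdgfra cells in each of these libraries, by log2 1.0 [0.53 to 1.45], 1.23 [1.09 to 1.37] and 1.15 [0.95 to 1.35]. In Pdgfra cells Il17rc ranged narrowly, from 13.0 CPM in Gli1- 21 dpi to 20.3 CPM in Gli1+ 7 dpi. Cells holding both Il17ra and Il17rc made up 4.25 to 8.91% of Pdgfra cells over the 6 libraries, 20.2% of the 84 Krt14-high cells of Gli1+ uninjured, which had a median of 19167.5 UMIs, 5.51% of the 1506 at 7 dpi and 7.13% of the 589 at 21 dpi, and 1.0% of the Ptprc cells, without thinning. The Krt14-high shares of the 2 injured libraries lay within the Pdgfra range.

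Il17rd, an orphan family member also known as Sef, was higher in endothelium than in mesenchymal cells before injury and at 7 dpi. Cdh5 cells measured 76.4 CPM in Gli1+ uninjured, 58.9 in Gli1- uninjured, 29.3 in Gli1+ 7 dpi, 23.8 in Gli1- 7 dpi, 28.6 in Gli1+ 21 dpi and 22.1 CPM in Gli1- 21 dpi. The level in Cdh5 cells was above that in Pdgfra cells of the same library in each case, by log2 0.19 to 1.22, but at 21 dpi the counting intervals of both ratios included 0. Ptprc cells held 3.75 CPM.

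Nfkbiz was measured at a similar level in several classes. In Pdgfra cells it measured 513 CPM in Gli1+ uninjured, 615 in Gli1- uninjured, 420 in Gli1+ 7 dpi, 411 in Gli1- 7 dpi, 357 in Gli1+ 21 dpi and 359 CPM in Gli1- 21 dpi. Ptprc cells (493 CPM) and Cdh5 cells (385 to 539 CPM) lay within this range, and Krt14-high cells lay below it at 265 to 291 CPM. Zc3h12a measured 162 CPM in Ptprc cells and 44.7 CPM in Pdgfra cells of Gli1+ uninjured, a log2 ratio of 1.86 [1.74 to 1.97]. Krt14-high cells held 49.7, 83.1 and 48.3 CPM in Gli1+ uninjured, 7 dpi and 21 dpi. In Pdgfra cells Zc3h12a was 44.7 CPM in Gli1+ uninjured, 57.1 in Gli1- uninjured, 17.3 in Gli1+ 7 dpi, 14.7 in Gli1- 7 dpi, 20.6 in Gli1+ 21 dpi and 20.8 CPM in Gli1- 21 dpi, so both uninjured libraries lay above all 4 injured ones.

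Within Pdgfra cells Il17ra was low in cells with tendon genes. Cells holding both Scx and Tnmd, a transcription factor and a membrane protein of tenocytes, measured 23.3 CPM in Gli1+ uninjured against 58.2 CPM in Ly6a cells without Scx, a log2 ratio of -1.32 [-1.99 to -0.72]. The same ratio was -1.17 in Gli1+ 7 dpi, -2.05 in Gli1- 7 dpi, -1.52 in Gli1+ 21 dpi and -1.58 in Gli1- 21 dpi. Gli1- uninjured had too few such cells for a value. Cells holding Acan and Sox9, genes of cartilage, lay lower than the Ly6a cells as well, by -1.05 to -1.29 in the 4 injured libraries. Il17rc differed little between the tendon and Ly6a cells, with log2 ratios from -0.15 to 0.15.

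**Figure D4:**
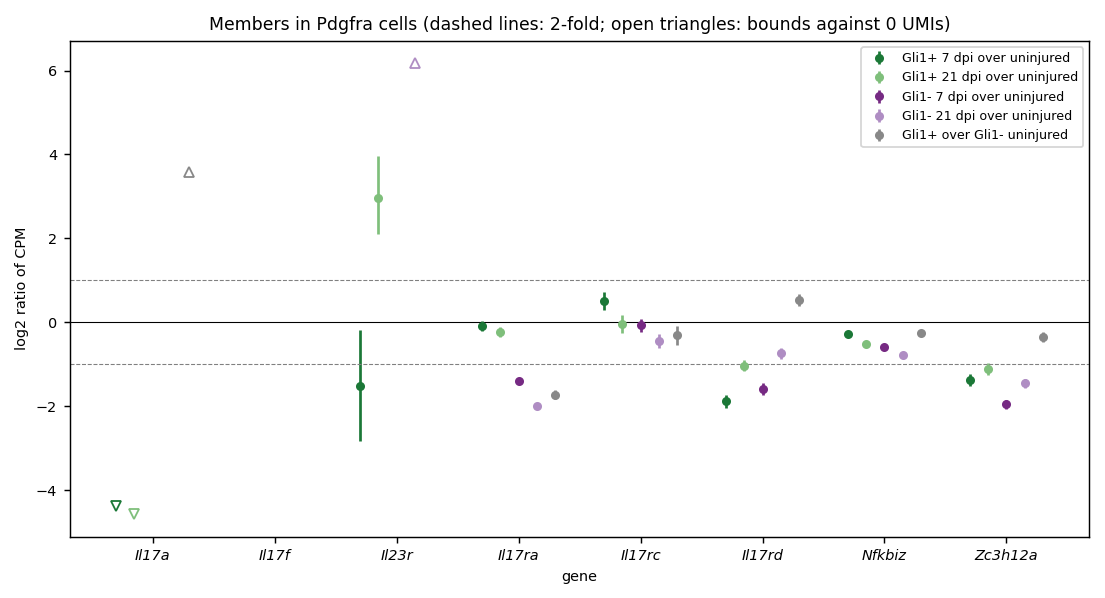
Log2 ratio of each member in Pdgfra cells for the 5 comparisons, with 95% counting intervals; triangles are bounds computed at 3 counts where a library held 0, and dashed lines mark 2-fold. Il17rd and Zc3h12a lie below 0 in all 4 comparisons of injured with uninjured cells.

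The comparison of injured with uninjured Pdgfra cells asks how the responding side of the axis stood at each time after tenotomy. In Gli1+ cells at 7 dpi, 4 of the 7 members with at least 20 UMIs in both libraries together were at least 2-fold lower and 0 were higher, against 20.3% and 14.9% of all genes tested. Il17rd had a log2 ratio of -1.89 [-2.05 to -1.73], Zc3h12a -1.37 [-1.52 to -1.23] and Il23r -1.52 [-2.83 to -0.20], the last from 12 and 11 UMIs. Il17a was at least 20.9-fold lower, from 20 UMIs to 0, computed at 3 counts. With overlapping classes, where cells meeting more than 1 criterion enter, Il23r stood at -4.85. At the Cd3g share of 0.775%, leukocyte RNA would give 2.45 CPM of Il17a and 2.42 CPM of Il23r in the uninjured Pdgfra cells. The levels measured there were 1.29 and 0.708 CPM. The share depends on the gene used, and at the Il17a share of 0.408% the value for Il23r would be 1.28 CPM. The part of leukocyte RNA in the ratios of Il17a and Il23r was not tested. Il17a passed the minimum of 20 UMIs through the uninjured library alone, so it could only be called lower, and without it the count is 3 of 6. Il17rd and Zc3h12a are the 2 other members past 2-fold. Il17rc lay higher at 0.50 [0.28 to 0.71], Nfkbiz lower at -0.29, and Il17ra at -0.09 [-0.21 to 0.02]. Set against the uninjured cells with only Y-linked UMIs, 2 members were past 2-fold. In Krt14-high cells of Gli1+ 7 dpi, Krt14 stood at 16432 CPM, and 3.53% of this level was found in the Pdgfra cells of the library. At that share the Krt14-high cells would give 1.68 of the 20.3 CPM of Il17rc and 2.93 of the 17.3 CPM of Zc3h12a. The share is itself limited by the class rule, since Pdgfra cells that also met the Krt14 criterion had been left out. The part of keratinocyte RNA in these levels was not tested.

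In Gli1+ cells at 21 dpi, 3 of 7 members were at least 2-fold lower and 1 was higher, against 20.7% and 9.16% of all genes. Il17rd had a log2 ratio of -1.04 [-1.17 to -0.91] and Zc3h12a of -1.12 [-1.26 to -0.98]. Il17a was at least 23.8-fold lower, from the same 20 uninjured UMIs, and again could only be called lower. The other 2 lower members are Il17rd and Zc3h12a. Nfkbiz was at -0.52, Il17ra at -0.23 [-0.34 to -0.11] and Il17rc at -0.04. Il23r was the member that was higher, at 2.95 [2.09 to 3.97], from 11 and 304 UMIs. It passed the minimum through the 21 dpi library alone, and without it and Il17a the count is 2 of 5 lower and 0 higher. The ratio turned to -1.07 where cells meeting more than 1 class criterion were kept in each class. Scaling by TMM adds 0.34 to every log2 ratio of this comparison and 0.22 to those at 7 dpi. With it 2 members were past 2-fold at 21 dpi, Il17rd and Zc3h12a standing at -0.70 and -0.78, and Il17ra turned to 0.12.

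In Gli1- cells at 7 dpi, 3 of 5 members were at least 2-fold lower and 0 higher, against 16.2% and 15.5% of all genes. Zc3h12a had a log2 ratio of -1.96 [-2.07 to -1.85], Il17rd of -1.59 [-1.73 to -1.45] and Il17ra of -1.41 [-1.47 to -1.35]. Nfkbiz stood at -0.58 and Il17rc at -0.08. At 21 dpi, 2 of 6 members were lower and 1 higher, against 17% and 14.1% of all genes. Il17ra stood at -2.0 [-2.07 to -1.93], Zc3h12a at -1.46 [-1.57 to -1.35], Nfkbiz at -0.78, Il17rd at -0.74 and Il17rc at -0.45. Il23r, with 0 UMIs in Gli1- uninjured and 418 at 21 dpi, was at least 72.1-fold higher, and passed the minimum through the 21 dpi library alone. TMM scaling adds 0.16 and 0.18 to these ratios. The 2 comparisons share the Gli1- uninjured library, in which Il17ra stood at 175 CPM, and the 2 Gli1+ comparisons share theirs.

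Before injury, 1 of 6 members was at least 2-fold higher in Gli1+ than in Gli1- Pdgfra cells and 1 was lower, against 12.3% and 5.55% of all genes. Il17ra, at 52.7 against 175 CPM, had a log2 ratio of -1.73 [-1.84 to -1.62], and of -1.98 when the Gli1+ cells were restricted to those with only Y-linked UMIs. Il17a, the 1 higher member, had 20 against 0 UMIs and was at least 11.9-fold higher. It passed the minimum through the Gli1+ library alone and could only be called higher, and without it 0 of 5 members were higher. Ptprc cells of the Gli1+ library held 315 CPM of it. With the Y-linked restriction 1 member was past 2-fold. Il17rd stood at 0.52, Nfkbiz at -0.26, Il17rc at -0.31 and Zc3h12a at -0.35. TMM scaling lowers these ratios by 0.16. In the same Pdgfra cells T cell markers (7 of 7 with UMIs) summed to 18.3 CPM and immune markers (4 of 5, Ptprc being at 0 by the rule) to 14.2 CPM.

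Il17rd stood lower after injury in Cdh5 and Krt14-high cells as well. In Cdh5 cells its log2 ratio to uninjured was -1.38 in Gli1+ 7 dpi, -1.42 in Gli1+ 21 dpi, -1.31 in Gli1- 7 dpi and -1.41 in Gli1- 21 dpi, and in Krt14-high cells -1.55 and -1.28 in the Gli1+ libraries. Mesenchymal markers (5 of 6 with UMIs, Pdgfra being at 0 by the rule) moved in the same classes. In Cdh5 cells they summed to 4209 CPM in Gli1+ uninjured, 13784 at 7 dpi and 4294 at 21 dpi, and to 2029 CPM in Gli1- uninjured, 11794 in Gli1- 7 dpi and 6273 CPM in Gli1- 21 dpi. In Krt14-high cells they summed to 185, 4857 and 1021 CPM. The part of mesenchymal RNA in these ratios was not tested. Zc3h12a was lower in Cdh5 cells of the Gli1- libraries, at -1.5 [-1.81 to -1.20] and -1.42 [-1.63 to -1.21], and stood at -0.60 [-1.34 to 0.08] and -0.78 [-1.28 to -0.29] in those of Gli1+ 7 and 21 dpi. In Krt14-high cells it stood at 0.74 [0.43 to 1.08] at 7 dpi and at -0.04 [-0.38 to 0.31] at 21 dpi. At 7 dpi its direction in Krt14-high cells was thus opposite to that in Pdgfra cells of the same 2 libraries.

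The wider pathway was read from gene lists. Among the 6 interleukin-17 ligand genes, Il17d had enough UMIs in Pdgfra cells for all comparisons. Its level was 33.9 CPM in Gli1+ uninjured, 37.6 in Gli1- uninjured, 8.29 in Gli1+ 7 dpi, 14.5 in Gli1- 7 dpi, 21.9 in Gli1+ 21 dpi and 21.3 CPM in Gli1- 21 dpi. Of 16 genes of receptor signalling, all measured in each comparison, 0 were at least 2-fold higher, and 2, 1, 4 and 4 were lower in Gli1+ 7 dpi, Gli1+ 21 dpi, Gli1- 7 dpi and Gli1- 21 dpi, where 20.3%, 20.7%, 16.2% and 17% of all genes were lower. Traf5, which encodes an adaptor of the stabilisation branch, was lower in all 4, with log2 ratios of -1.34, -1.53, -1.33 and -1.75. Traf3ip2 lay at -1.60 and -1.76 in the Gli1- comparisons and at -0.82 and -0.84 in the Gli1+ ones. Cebpd measured 3475, 724 and 614 CPM in Gli1- uninjured, 7 dpi and 21 dpi, and 1186, 526 and 667 CPM in Gli1+. Cebpb measured 1127, 294 and 349 CPM in the Gli1- cells, but rose in Gli1+ from 276 to 342 and 450 CPM. Of the 9 brakes, 1, 0, 2 and 0 were at least 2-fold higher in the same order, beside 14.9%, 9.16%, 15.5% and 14.1% of all genes. Lower were 1, 1, 2 and 2, beside the shares of lower genes given above. Zc3h12a was the gene past 2-fold lower in Gli1+ cells. Zfp36 measured 2864, 1038 and 684 CPM in Gli1- uninjured, 7 dpi and 21 dpi, and Traf3 39.0, 84.6 and 59.8 CPM. Traf4, whose product competes with TRAF6 for Act1, had log2 ratios of 1.25 and 1.07 at 7 dpi in Gli1+ and Gli1- cells.

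Immediate-early genes were read beside Nfkbiz and Zc3h12a because cell dissociation can induce them. Of 16 such genes, 9, 1, 11 and 9 were at least 2-fold lower in the same 4 comparisons and 0 were higher, beside the 20.3%, 20.7%, 16.2% and 17% of all genes that were lower. The 1 gene in Gli1+ 21 dpi is a smaller share than that of all genes. Egr1, for instance, measured 3374 and 4395 CPM in the uninjured Gli1+ and Gli1- cells and 1273 to 1455 CPM in the 4 injured libraries. Zc3h12a and, by less, Nfkbiz were lower in the same comparisons, and the part of dissociation in these ratios was not tested.

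**Figure D5:**
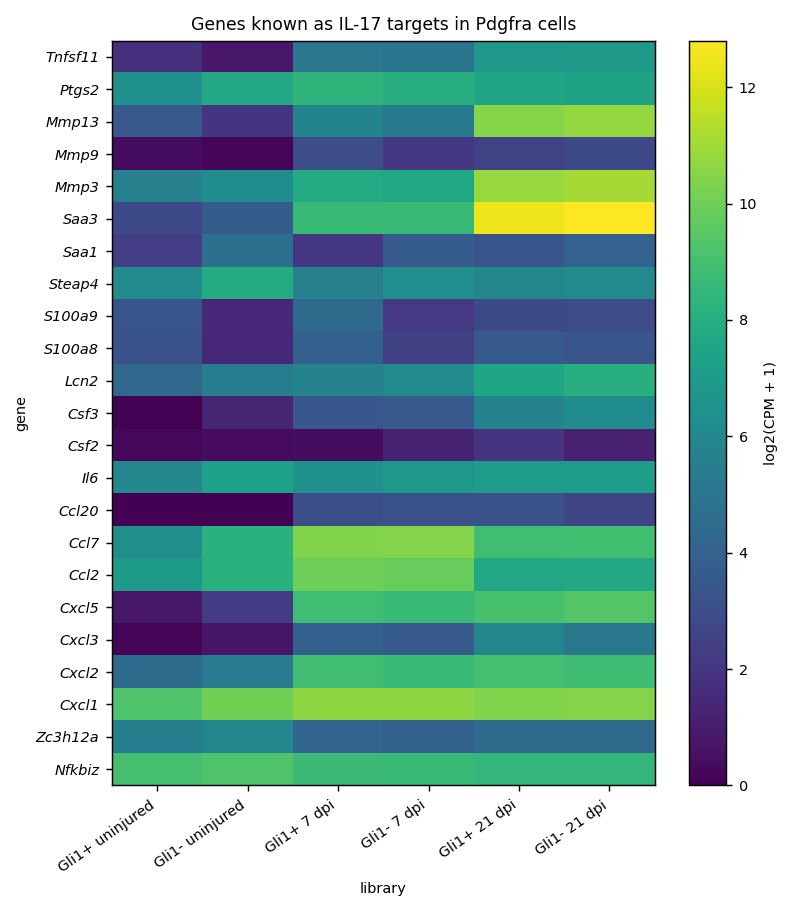
Heat map of the levels of 23 interleukin-17 target genes (rows) in the Pdgfra cells of the 6 libraries (columns), coloured by log2(CPM + 1). Saa3, Mmp13 and Cxcl5 stand higher in all 4 injured libraries, whereas Nfkbiz and Zc3h12a, which belong to the list, do not.

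Genes known as targets of interleukin-17 stood higher in injured Pdgfra cells. Of 26 genes, 16 of 23 measured in Gli1+ 7 dpi, 17 of 23 in Gli1+ 21 dpi, 14 of 23 in Gli1- 7 dpi and 15 of 24 in Gli1- 21 dpi were at least 2-fold higher, beside 14.9%, 9.16%, 15.5% and 14.1% of all genes, and 1, 1, 3 and 2 were lower. The medians of their log2 ratios were 2.30, 3.28, 1.70 and 2.61, beside -0.14, -0.30, -0.07 and -0.10 over all genes tested. In the Gli1+ comparisons, Ccl20, Csf3, Cxcl3, Mmp9 and Cxcl5 held 0, 1, 2, 5 and 12 uninjured UMIs. They passed the minimum of 20 UMIs through the injured library alone. So did Csf2 at 21 dpi, with 3 uninjured and 162 injured UMIs. At 7 dpi, Ccl20, Csf3 and Cxcl3 could only be called higher, as could Csf3 and Cxcl3 at 21 dpi. In Gli1- uninjured, Ccl20, Il19, Mmp9, Csf2 and Cxcl3 stood at 0, 0.036, 0.18, 0.288 and 0.683 CPM. Where measured in the Gli1- comparisons, these genes also passed the minimum through the injured library alone. Many of the target genes also respond to interleukin-1 and tumour necrosis factor. Saa3, an acute-phase protein gene, measured 5.98 and 12.7 CPM in the uninjured Gli1+ and Gli1- cells, 387 and 390 CPM at 7 dpi, and 5625 and 7132 CPM at 21 dpi. The chemokine gene Cxcl5 measured 0.772 and 3.67 CPM uninjured, 473 and 406 CPM at 7 dpi, and 544 and 673 CPM at 21 dpi. The collagenase gene Mmp13 went from 10.9 and 2.77 CPM to 54.3 and 35 and then 1433 and 1761 CPM. Csf3, a growth factor for neutrophils, held 0.0643 and 1.47 CPM (1 and 41 UMIs) uninjured, 10.3 and 11.7 CPM at 7 dpi, and 52.1 and 74.5 CPM at 21 dpi. Before injury the Gli1+ cells had 11 of 20 targets at least 2-fold lower and 4 higher than Gli1- cells, beside 5.55% and 12.3% of all genes, with a median of -1.12 beside 0.11 over all genes.

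Of 24 genes listed as inducers and factors of type 17 cells, 23 were matched by symbol in the files. In Pdgfra cells 1 was at least 2-fold higher and 10 lower of 17 measured in Gli1+ 7 dpi, 3 and 8 of 19 in Gli1+ 21 dpi, 5 and 8 of 16 in Gli1- 7 dpi, and 6 and 4 of 16 in Gli1- 21 dpi. Of all genes, 14.9% were higher and 20.3% lower in the first of these, 9.16% and 20.7% in the second, 15.5% and 16.2% in the third, and 14.1% and 17% in the last. Ccl20, the ligand of the receptor CCR6 that type 17 cells carry, had 0 UMIs in both uninjured libraries and measured 7.30, 7.92, 7.95 and 5.45 CPM in Gli1+ 7 dpi, Gli1- 7 dpi, Gli1+ 21 dpi and Gli1- 21 dpi. Il1a had 0 UMIs in both uninjured libraries, and measured 3.52 and 2.22 CPM in Gli1+ and Gli1- cells at 21 dpi. Ccl20 and Il1a, with 0 uninjured UMIs, could not be called lower. The 3 higher genes in Gli1+ 21 dpi were Ccl20, Il1a and Il23r, and all passed the minimum of UMIs through the injured library alone. The same holds for Ccl20, Il1a and Il23r in Gli1- 21 dpi. In Gli1- 7 dpi it holds for Ccl20, Il18r1 and Blk, the last 2 at 0.036 and 0.072 CPM in Gli1- uninjured. Il7r, a gene of T cells, had 40 UMIs in Gli1+ uninjured and 0 in both injured Gli1+ libraries. It passed the minimum through the uninjured library alone. The T cell marker Cd3g measured 2.89, 0 and 0.018 CPM in Pdgfra cells of Gli1+ uninjured, 7 dpi and 21 dpi. Trbc2, of the same marker list, measured 5.28, 5.86 and 3.08 CPM. The part of leukocyte RNA in the lower counts was not tested.

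Il23r behaved unlike the cytokines after injury. In Pdgfra cells it held 11 UMIs in Gli1+ uninjured, 0 in Gli1- uninjured, 12 in Gli1+ 7 dpi, 8 in Gli1- 7 dpi, 304 in Gli1+ 21 dpi and 418 in Gli1- 21 dpi, where the levels were 5.48 [4.88 to 6.13] and 7.78 [7.05 to 8.56] CPM. Pdgfra cells held 55453510 of all 98236780 UMIs in Gli1+ 21 dpi and 53724492 of all 98170381 in Gli1- 21 dpi. Of the Il23r UMIs of these 2 libraries 87.4% and 83.3% lay in Pdgfra cells. Few cells carried them, 106 of 5132 (2.07%) in Gli1+ and 130 of 5065 (2.57%) in Gli1- 21 dpi, and after thinning to 2000 UMIs the shares were 0.436% (0.273 to 0.659%) and 0.665% (0.458 to 0.932%). Cells with 4 or more Il23r UMIs, 30 and 33 of them, held 64.5% and 64.8% of the UMIs, and the highest held 15 and 23. Within Gli1+ 21 dpi the level was 8.45 CPM in Acan and Sox9 cells and 4.32 CPM in Ly6a cells without Scx, a log2 ratio of 0.97 [0.59 to 1.34]. The Acan and Sox9 cells were deeper, with a median of 15495.5 against 9117 UMIs. Yet the 4 chondrocyte markers together were lower in cells with an Il23r UMI than in the other Pdgfra cells. They summed to 207 against 575 CPM in Gli1+ and 245 against 997 CPM in Gli1- 21 dpi. Of these markers Sox9 was higher, by log2 0.14 and 0.33.

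The Pdgfra cells with an Il23r UMI, examined after the values had been seen, held few UMIs of the Cd3 and immune marker genes. They held more Trdc than the other Pdgfra cells. Those with Il23r held 1 UMI (Gli1+) and 0 UMIs (Gli1-) of Cd3d, Cd3e and Cd3g together, and 0 of Il17a and Il17f. Of the 5 immune markers, Ptprc being at 0 by the rule, 1 had UMIs. It stood at 0.431 CPM in Gli1+ and 0.729 CPM in Gli1- cells, against summed levels of 1.22 and 1.49 CPM in the other Pdgfra cells. The T cell list had UMIs of 3 and 2 of its 7 genes and summed to 9.90 and 9.11 CPM, against 3.95 and 4.2 CPM. Trdc, which marked the cytokine-holding T cells above, measured 174 against 24.4 CPM and 148 against 22.0 CPM. The 4 matched gamma delta markers, Trdc among them, summed to 175 against 27.4 CPM and 150 against 25.9 CPM. Nearly all of these sums was thus Trdc, and the rest of the list was lower in cells with Il23r. Trdv4 had 0 UMIs in those of Gli1+. The macrophage and monocyte list had 4 and 2 of 7 genes and summed to 18.1 and 17.1 CPM, against 9.84 and 9.22 CPM. Il12rb1, which encodes the second chain of the interleukin-23 receptor, had 1 and 4 UMIs in them. Ccl3 (log2 ratio 5.26 and 4.75), Il1a (4.94 and 4.38) and Il1rl1, the interleukin-33 receptor gene (679 against 45.7 CPM and 587 against 48.7 CPM), were among the 10 leading genes in both libraries. Csf2, Mmp9, Il11, Cxcl3 and Nlrp3 were among them in Gli1+, and Reg3g, Npy, Kcnk10 and Csf3 in Gli1- cells. Of the interleukin-17 targets, 15 of 23 and 16 of 24 were at least 2-fold higher than in the other Pdgfra cells and 1 was lower in each, beside 9.25% and 7.15% of all genes higher and 14.4% and 13.9% lower. The cells were deeper, with medians of 22580.5 and 20241 UMIs against 9540 and 9213, as choosing cells by a rare UMI favours.

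Genes with the profile most like each of 5 members were sought over 16 profiles of library and class, among 16458 genes, by Pearson's r of log2(CPM + 1), given as a description since classes of 1 library share their depth. For Il17a these were Adgre1 (0.999), Scart2 (0.999) and Clec4a2 (0.998), an order that rests on the single Ptprc profile. For Il17ra they were Mcoln2 (0.913), Clcn5 (0.910) and Cd164 (0.876), for Il17rc Papss1 (0.943), Efna5 (0.932) and Ado (0.928), for Nfkbiz Casp4 (0.946), Tnpo1 (0.940) and Nrxn3 (0.921), and for Zc3h12a Dbr1 (0.926), Ppm1b (0.921) and Appl1 (0.906).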

How the data were processed

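Single-cell RNA-seq counts of 6 libraries were used as deposited by the authors: UMI counts per gene and cell barcode, not normalised. The file headers name Cell Ranger 9.0.0, whereas the submitters' processing notes list Cell Ranger 3.1.0, STAR and mm10, and which of these made the counts could not be settled. The lowest barcode held 500 UMIs. As in the study's methods, cells needed at least 200 genes, 1000 UMIs, a log10 ratio of genes per UMI of at least 0.7, and at most 5% mitochondrial and 5% haemoglobin UMIs. The study removed doublets with DoubletFinder. Here the highest Scrublet scores (scanpy 1.11.5) were removed, at 0.8% per 1000 cells.

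UMIs were summed per class and divided by the total UMIs of the class. Median depth was 4297 to 9775 UMIs per cell. Shares of cells were compared after thinning to 2000 UMIs, leaving out shallower cells. A gene entered a comparison with at least 20 UMIs in both libraries together and was counted past a 2-fold difference. A level of 0 UMIs was replaced by 3 counts for a bound. Mice were not replicates in the files, so no test was made. The ratio calculation was tested on simulated data. The 8 members and the gene lists were chosen with earlier results of these data known. The genes named were all members, up to 4 genes with the largest ratio of a list, the 10 leading genes of cytokine-holding cells and the 3 genes most like a member; Il22, Scart1, Scart2, Trgc1, Trdc in Pdgfra cells and the values of Il23r-holding cells were added after values had been seen. Alternatives were no cell filters, no doublet removal, overlapping classes, 2 UMIs per class marker, a stricter Krt14 criterion, TMM scaling (edgeR 4.0.16), CPM without mitochondrial genes and Cntn5 (0.387 to 654 CPM between libraries), other thinning and no minimum of UMIs. The marker symbols Tcrg-C1, Tcrg-C2, Tcrg-C4 and Cd163l1 were not matched. A gene of the type 17 list is not reported here.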

Additional observations from a re-analysis of the deposited data

Results flagged for a closer look

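Cells outside all 4 classes, which enter no comparison above, held UMIs of the cytokine and Il23r genes. In Gli1+ uninjured, 996 such cells held 263 Il17a, 57 Il17f and 193 Il23r UMIs. Il17f had 4 UMIs in such cells of each of Gli1- uninjured, Gli1+ 7 dpi and Gli1- 7 dpi. Il23r had 15 in Gli1+ 7 dpi, 6 in Gli1- 7 dpi, 18 in Gli1+ 21 dpi and 24 in Gli1- 21 dpi. Each is above the 3 counts that a count of 0 allows.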

How the results depend on the processing

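No paired analysis was possible because each comparison made sets 1 library against 1 and comes from no test, and for the same reason no replicate could be left out. A sort difference over all time points was not fitted. In the Ptprc cells of Gli1+ uninjured, Il17a measured 323 CPM without mitochondrial genes and Cntn5, 330 CPM with TMM scaling and 296 CPM with overlapping classes, and Il17f 87.6 CPM with TMM scaling and 77.4 CPM with overlapping classes. The share of Il17a UMIs in Ptprc cells was 93.8% with the stricter Krt14 criterion, 90.4% with 2 UMIs per class marker, 97.4% with overlapping classes and 91.4% without doublet removal. The share of Ptprc cells with a cytokine was 11.1% with thinning to 1000 UMIs and 21.2% without thinning. Members past 2-fold in Gli1+ 21 dpi numbered 2 with TMM scaling. In Gli1+ 7 dpi they numbered 2 against uninjured cells with only Y-linked UMIs. In Gli1+ over Gli1- uninjured they numbered 4 with overlapping classes, 4 with no minimum of UMIs, 1 with the Y-linked restriction and 1 without cells holding a Krt14 UMI. The last 2 settings were chosen after seeing the data, and the last gave no value where under 50 cells stayed, as in Gli1+ 7 dpi. For Gli1+ 21 dpi over uninjured, the log2 ratio of Il17ra turned from -0.23 to 0.12 with TMM scaling, and that of Il23r from 2.95 to -1.07 with overlapping classes, where cells meeting more than 1 criterion enter; at 7 dpi that of Il23r went from -1.52 to -4.85 with the same setting. The cause was not tested further. Apart from the 2 values that turned in sign, 217 alternative values for single members stayed within their counting interval. Another 35 moved beyond it, that of Il23r at 7 dpi among them. Depth limits Il17f outside Ptprc cells, where a class held at most 11 UMIs.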
